A study of Mus musculus with 2 samples.

Results

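Keratin genes were examined in cultured mouse ureters in which the fibroblast growth factor receptor genes Fgfr1 and Fgfr2 were floxed and Cre was expressed from the Tbx18 locus. Members were all gene spots whose name on the array is Krt followed by digits only, which leaves out keratin-associated proteins and keratins with a letter at the end of the symbol. This gave 48 genes, 63 probes and 252 spots, of 29924 gene names and 39429 probes on the array. The mutant ureters carried Tbx18(cre/+) with both receptor genes floxed, Fgfr1(fl/fl) and Fgfr2(fl/fl). The controls were Fgfr1(fl/?) and Fgfr2(fl/?), so they also carry at least 1 floxed allele of each, and no Cre allele is listed for them. All were of the NMRI strain. Ureters were taken from E15.5 embryos and cultured for 6 days, and RNA of 1 mutant and 1 control sample was hybridised to each of 2 two-colour arrays. Array 1, labelled male, had its mutant RNA in Cy5, and array 2, labelled female, had it in Cy3, so the replicate, the sex label and the dye cannot be told apart. The labels do not say how many embryos were pooled. The p-values then cover only how far these samples differ, and that spread may be technical.

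Keratins form the intermediate filaments of epithelial cells and are obligate pairs of an acidic (type I) and a basic (type II) chain. Simple epithelia use Krt8 and Krt7 with Krt18 and Krt19, basal cells of stratified epithelia use Krt5 with Krt14, and the surface cells of the urothelium, the epithelium that lines the ureter, are marked by Krt20. Tbx18 is expressed in the mesenchyme around the developing ureter, while keratins are made mainly by the epithelium inside it.

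The probes are 60-base oligonucleotides, and some for the main keratins are shown because each value below is the brightness of such an oligonucleotide. Positions are on the mm9 build as the array files give them. They are the simple keratins Krt18 (chr15:101862341-101862400), Krt8 (chr15:101828827-101828886), Krt19 (chr11:100002392-100002451) and Krt7 (chr15:101253718-101253777), and the basal keratins Krt5 (chr15:101542056-101542115), Krt14 (chr11:100064683-100065288) and Krt15 (chr11:99993331-99993390). Capitals mark the stop codon that ends the longest open frame of the Krt18 probe, at base 50. The Krt14 probe spans 606 bases of genome, so its letters come from separate stretches. Krt18 and Krt7 are on the plus strand and the others on the minus strand.
Krt18: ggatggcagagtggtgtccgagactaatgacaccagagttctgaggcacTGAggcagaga
Krt8: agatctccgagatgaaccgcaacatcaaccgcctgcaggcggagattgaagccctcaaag
Krt19: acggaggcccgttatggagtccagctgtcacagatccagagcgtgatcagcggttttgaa
Krt7: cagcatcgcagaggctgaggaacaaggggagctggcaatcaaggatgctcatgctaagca
Krt5: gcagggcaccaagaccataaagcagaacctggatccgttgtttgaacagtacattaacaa
Krt14: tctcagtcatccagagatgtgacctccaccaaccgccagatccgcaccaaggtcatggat
Krt15: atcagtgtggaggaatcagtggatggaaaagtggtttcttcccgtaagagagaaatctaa

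Between 70.3% and 78.3% of gene spots were well above background in a channel, and no gene spot was saturated. The median SD of a gene's log2 ratio between the arrays was 0.11. Over all tested genes the array 1 and array 2 ratios had a Pearson r of 0.52, as a description, since genes are not replicates. The targeted genes did not give a plain check of the labels, since the labels do not say which exons the probes or the deletions cover. Fgfr1 had log2 signals of 13.64 (control) and 13.41 (mutant) on array 1 and 13.69 and 13.25 on array 2, which gives -0.33 ± 0.15 as the mean log2 ratio (SD, n = 2, limma adjusted p = 0.134). Fgfr2 had 9.57 and 10.14 on array 1 and 9.44 and 9.98 on array 2, a mean of 0.56 ± 0.02 (SD, n = 2, limma adjusted p = 0.0309). Sex-linked genes went against the sex label of both control samples. On array 1, labelled male, Xist was well above background in the control (log2 signal 8.74) and not in the mutant (6.80), while the Y-linked gene Ddx3y stood at 12.42 and 12.65. On array 2, labelled female, Ddx3y was well above background in the control (9.38) and not in the mutant (6.55), while Xist stood at 11.44 and 11.42. The part of sex in the keratin values was not tested, and the sex labels are given here only as labels.

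Most keratins that mark the urothelium were present in every RNA, and most hair keratins were not. In all 4 channels (control and mutant on each array), 27 of 48 keratin genes (56.2%) had a probe well above background, against 68.9% of all gene names. All 5 simple keratins and all 4 basal keratins were among them. So were Krt20 and Krt13 of the 4 superficial and mucosal keratins, 7 of 11 skin keratins, Krt12 of the cornea, 2 of 9 inner root sheath and companion layer keratins, 5 of 13 hair and nail keratins, and the keratin-like gene Krt222. In the control RNA 31 keratins were above background on both arrays and in the mutant RNA 27. The mutant channel was also lower over all gene spots. There 78.3% (control) and 70.3% (mutant) were well above background on array 1, and 74.5% and 73.3% on array 2. A further 13 genes had no probe above background in any channel, among them Krt1 of the suprabasal epidermis, the oral keratin Krt76 and the root sheath keratins Krt25 and Krt71. Krt4, the mucosal partner of Krt13, was above background in 1 channel, the control of array 1.

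For the comparison of genotypes, 31 keratins could be tested and 17 could not. The rule for testing was a signal well above background in the mutant or in the control RNA of both arrays. Of the 31, Krt18 was higher in the mutant and Krt16 was lower at an adjusted p below 0.05, and 29 were not called. This is 6.45% of the tested keratins, where 3.79% of all 22070 tested genes were called. By direction, 1.76% of all genes were called higher and 2.03% lower. At an unadjusted p below 0.05 the keratins numbered 6 (19.4%), 1 higher and 5 lower, against 22.5% of all genes. On both arrays 8 keratins lay above 0 and 13 below 0, and 10 had opposite signs, where 30.5%, 36.0% and 33.5% of all genes did so. The median log2 ratio of the keratins was -0.01, against -0.02 for all genes, and 24 of 31 were within 0.25 of 0.

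**Figure D1:**
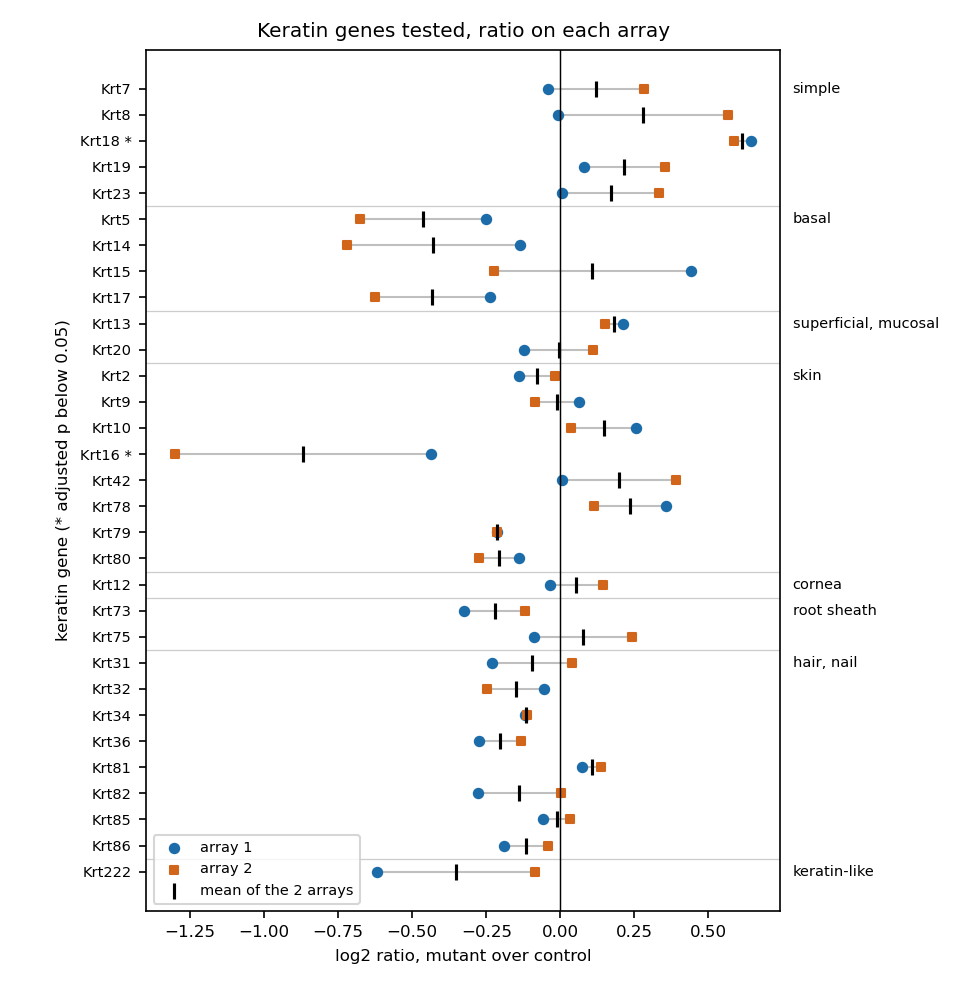
Log2 ratio of mutant over control for each of the 31 tested keratin genes on array 1 (circles) and array 2 (squares), with the mean as a bar and the genes grouped by the epithelium that uses them. Krt18 and Krt16 carry an asterisk (adjusted p below 0.05); the simple keratins have means above 0, and 3 of 4 basal keratins lie below 0 on both arrays.

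The simple keratins all had a mean ratio above 0, and 1 of the 5, Krt18, passed the test. Krt18, the type I partner of Krt8, had log2 signals of 16.34 (control) and 16.99 (mutant) on array 1 and of 16.66 and 17.24 on array 2. Both mutant samples were above both control samples, and the ratios of 0.64 and 0.59 lay close together. The mean was 0.61 ± 0.04 (SD, n = 2), a 1.53-fold difference (limma adjusted p = 0.0247). Krt18 was called in 4 of 9 alternative settings, and of those that could change the ratio only a background offset of 10 kept the call. With each array centred on its median in place of loess it was not called (log2 ratio 0.26, which is 0.40 above the median of all genes, limma adjusted p = 0.549).

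Krt8, the type II chain that pairs with Krt18, differed between the arrays. Its log2 signals were 15.73 (control) and 15.72 (mutant) on array 1 and 15.53 and 16.09 on array 2. The mutant was level with the control on array 1 and above it on array 2, so the mean of 0.28 ± 0.41 (SD, n = 2) did not pass (limma adjusted p = 0.293). The other Krt8 probe, whose sequence is printed above, gave 0.065 and 0.45. The same order, a small ratio on array 1 and a larger ratio on array 2, was seen in Krt7, Krt19 and Krt23, but not in Krt18.

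Krt19, a type I keratin of simple epithelia and of the whole urothelium, had 16.00 (control) and 16.08 (mutant) on array 1 and 16.07 and 16.43 on array 2. The mutant was higher on each array, although the mutant of array 1 was nearly level with the control of array 2, and the ratios averaged 0.22 ± 0.19 on the log2 scale (SD, n = 2, limma adjusted p = 0.305). Krt23, a type I keratin of several simple epithelia, had 13.21 and 13.21 on array 1 and 13.05 and 13.38 on array 2. Its mean was 0.17 ± 0.23 (SD, n = 2, limma adjusted p = 0.435), nearly all of it from array 2. Krt7, a type II keratin of ducts and urothelium, had 14.52 and 14.48 on array 1 and 14.22 and 14.50 on array 2. Its genotypes overlapped, and the mean was 0.12 ± 0.23 (SD, n = 2, limma adjusted p = 0.589). The 5 simple keratins had a median log2 ratio of 0.22, made up of 0.0063 on array 1 and 0.35 on array 2, against -0.02 for all genes. With each array centred on its median, the log2 ratios of Krt7, Krt8, Krt19 and Krt23 were -0.14, -0.03, -0.11 and -0.06, where all genes had a median of -0.14. Relative to that median they were 0.0004 for Krt7, 0.11 for Krt8, 0.029 for Krt19 and 0.085 for Krt23, so none of the 4 lay below it.

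**Figure D2:**
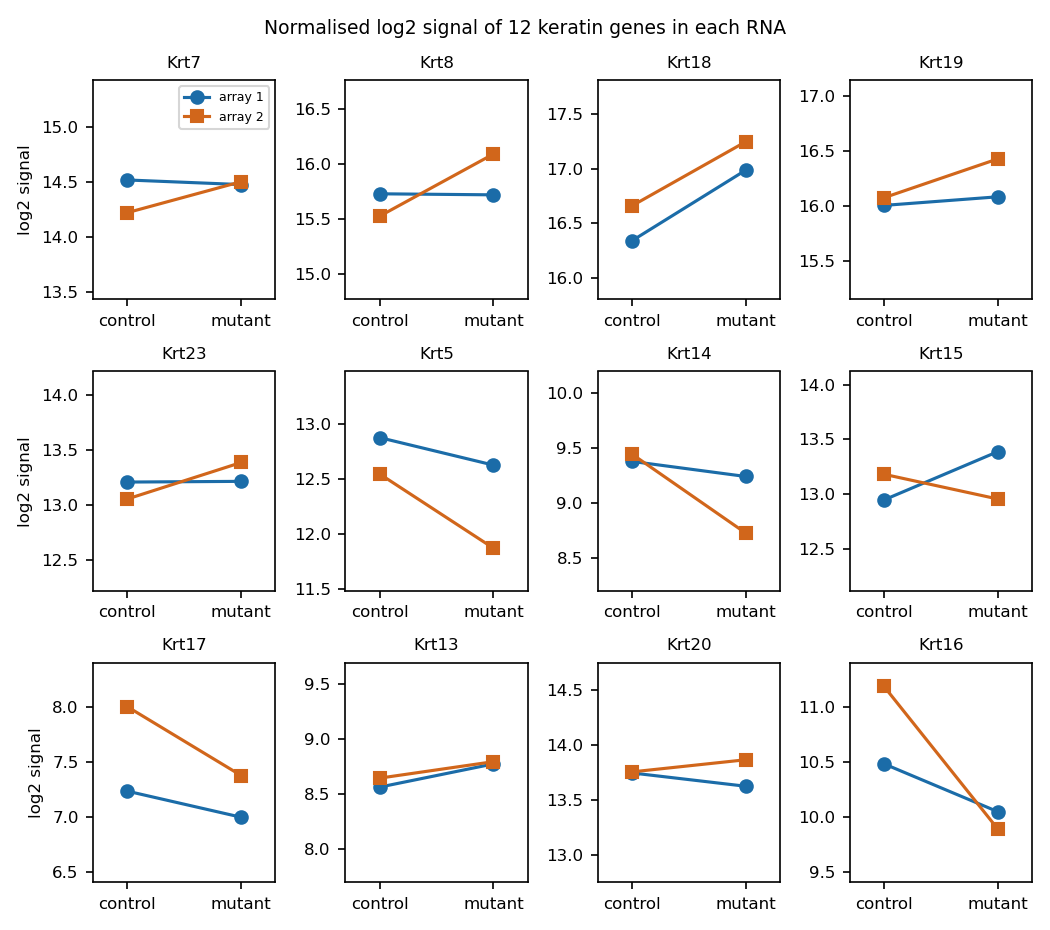
Normalised log2 signal of 12 keratin genes in control and mutant RNA, with array 1 as circles and array 2 as squares joined by a line. Each panel spans 2 log2 units around the gene's own mean, so slopes can be compared between panels and levels cannot; Krt18 rises and Krt16 falls on both arrays, and Krt15 crosses.

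None of the 4 basal keratins was called, although 3 of them lay below 0 on both arrays by their brightest probe. Krt5, the type II keratin of basal cells, had log2 signals of 12.88 (control) and 12.63 (mutant) on array 1 and of 12.55 and 11.87 on array 2. The mutant was lower on each array, but the mutant of array 1 was above the control of array 2. The ratios averaged -0.46 ± 0.30 on the log2 scale (SD, n = 2, limma adjusted p = 0.0833). The dimmer Krt5 probe printed above, with log2 signals from 6.91 to 7.19, gave 0.14 and -0.24, a mean of -0.05. The probes of this gene thus did not give the same size, and on array 1 they had opposite signs.

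Krt14, the type I partner of Krt5, had 9.38 (control) and 9.24 (mutant) on array 1 and 9.45 and 8.73 on array 2. Both mutant signals lay below both control signals, and the log2 ratios averaged -0.43 ± 0.41 (SD, n = 2, limma adjusted p = 0.137). Krt17, a keratin of basal cells that also rises in injured epithelium, had 7.24 and 6.999 on array 1 and 8.01 and 7.38 on array 2. These signals were the lowest of the 4 basal keratins, though well above background in all 4 channels. The mutant was lower on each array, with the mutant of array 2 above the control of array 1. Its mean was -0.43 ± 0.28 (SD, n = 2, limma adjusted p = 0.0923). With a robust, intensity-dependent prior the ratio of -0.43 was called (adjusted p = 0.0330), as was -0.57 with a background offset of 10 (adjusted p = 0.0341). The scanner's processed signals gave -0.77 (adjusted p = 0.093) and the authors' table -0.74 (adjusted p = 0.098), neither of them called.

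Krt15, a type I keratin of basal cells without a fixed type II partner, had opposite signs on the arrays. Its log2 signals were 12.95 (control) and 13.39 (mutant) on array 1 and 13.18 and 12.96 on array 2. The mutant was higher on array 1 and lower on array 2, with a mean of 0.11 ± 0.47 (SD, n = 2, limma adjusted p = 0.725). The median of the 4 basal keratins was -0.43, -0.19 on array 1 and -0.65 on array 2. For Krt5, Krt14 and Krt17 the size on array 2 was the larger, as it was for most simple keratins in the other direction.

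Among the superficial and mucosal keratins neither tested gene was called. Krt20, the keratin of umbrella cells, had log2 signals of 13.74 (control) and 13.62 (mutant) on array 1 and 13.75 and 13.86 on array 2. The genotypes overlapped, and the mean was -0.01 ± 0.16 (SD, n = 2, limma adjusted p = 0.984). Krt13, a type I keratin of stratified mucosa and of intermediate urothelial cells, had 8.56 and 8.77 on array 1 and 8.64 and 8.79 on array 2. Both mutant signals were above both controls, by 0.18 ± 0.04 (SD, n = 2, limma adjusted p = 0.346). The other Krt13 probe was dimmer, with log2 signals from 6.92 to 7.16, and gave -0.16 and -0.21. The direction of Krt13 thus depends on the probe, and the mean over its probes was -0.0025. Krt4 and Krt76 were too dim to test.

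Krt16, a type I keratin that is induced in activated and injured epidermis, was the member with the lowest ratio. Its probe lies at chr11:100107408-100107467 (mm9). Log2 signals were 10.48 (control) and 10.05 (mutant) on array 1 and 11.19 and 9.89 on array 2. Both mutant signals lay below both control signals, and the control of array 2 was the highest of the 4. The log2 ratios were -0.44 and -1.30, a mean of -0.87 ± 0.61 (SD, n = 2), which is 1.83-fold lower in the mutant (limma adjusted p = 0.0428). Krt16 was called in 3 of 9 alternative settings, and of those that could change the ratio only a background offset of 10 kept the call. With no filter on dim probes the same ratio had a limma adjusted p of 0.0633. Its spread between the arrays was larger than that of any other tested keratin.

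Of the keratins with a letter in the symbol, which the rule leaves out, the type II partners of Krt16 and Krt17 lay below 0 on both arrays without passing the test. Krt6a, a stress-induced type II keratin, had -0.36 and -0.71 (mean -0.53 ± 0.25, SD, n = 2, limma adjusted p = 0.0503). Krt6b had -0.40 and -0.48 (mean -0.44 ± 0.06, SD, n = 2, limma adjusted p = 0.0594). The hair keratin Krt33a had a mean of 0.23 (limma adjusted p = 0.243), and Krt33b was not above background.

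Most of the remaining keratins of skin, cornea, root sheath and hair lay close to 0. With Krt16 and Krt222 included, 20 of these 35 genes could be tested. Their median was -0.11, 4 lay above 0 on both arrays and 10 below 0, and 18 were within 0.25 of 0. The skin keratins other than Krt16 ran from -0.21 in Krt79, found in sebaceous ducts, to 0.24 in Krt78, and none was called. Krt10, the suprabasal epidermal keratin whose type II partner Krt1 was not above background, had 0.15 ± 0.15 (SD, n = 2, limma adjusted p = 0.472). The 8 hair and nail keratins that were tested ran from -0.20 in Krt36 to 0.11 in Krt81. Krt32 and Krt34 were above background in the control and not well above background in the mutant. They thus entered the test through the control alone, a selection that favours a lower mutant signal. Their mean log2 ratios of -0.15 (Krt32, limma adjusted p = 0.455) and -0.12 (Krt34, limma adjusted p = 0.548) did not pass. The nominal bounds were 1.09-fold and 1.08-fold lower, and given this selection they do not establish a decrease. For these bounds the dim probe was set at the higher of its own signal and the lowest signal called well above background on that array.

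For some keratins 1 probe was bright and another was not above background, and these genes were singled out after their values were seen. Krt85, a type II hair keratin, had 1 probe well above background in all 4 channels with log2 ratios of -0.06 and 0.03, another with -0.21 and -0.13, and another that was above background in no channel. The array files give no position for the bright probe, and the probe without signal lies at chr15:101261695-101261754, closer to the probe the array calls Krt83, which RefSeq now names Krt87 (chr15:101263556-101263615), than to the other Krt85 probe (chr15:101346117-101346176). Whether RNA of other keratins bound the Krt85 probes was not tested.

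Krt42, a type I keratin of the nail unit, also had 1 probe above background in all 4 channels and 1 in none. The bright one gave log2 ratios of 0.00 and 0.39. The keratin probe closest to it is 1 of Krt28, a root sheath keratin, with 41 of 58 bases shared (70.7%). That Krt28 probe was above background in no channel, while the other Krt28 probe was well above background in 2. Whole transcripts were not compared, and whether RNA of other keratins bound the bright Krt42 probe was not tested. Capitals in the Krt28 probe mark bases shared with the Krt42 probe at the offset with most matches.
Krt42: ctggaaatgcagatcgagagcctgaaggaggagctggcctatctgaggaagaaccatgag
Krt28: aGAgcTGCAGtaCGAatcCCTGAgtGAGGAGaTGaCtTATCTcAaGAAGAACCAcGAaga

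Krt222, a truncated keratin-like gene, had 1 very bright probe, with log2 signals of 16.20 (control) and 15.58 (mutant) on array 1 and 15.49 and 15.41 on array 2. Its ratios averaged -0.35 ± 0.38 on the log2 scale (SD, n = 2, limma adjusted p = 0.184), and the other Krt222 probe was above background in no channel. The bright probe holds a run of 22 bases in which A and C alternate, where the next longest such run in a keratin probe is 5. On the whole array 17 gene probes hold a run at least that long, this one included. All 17 were well above background in all 4 channels, against 68.6% of all gene probes. Over these 17 the median was -0.58 for array 1 and -0.09 for array 2, where Krt222 had -0.62 and -0.09. Krt222 is 1 of the 17 and is itself the median probe on array 2, so its match there was fixed. The Krt222 value is given as that of its bright probe alone, and the part of the repeat in it was not tested.

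**Figure D3:**
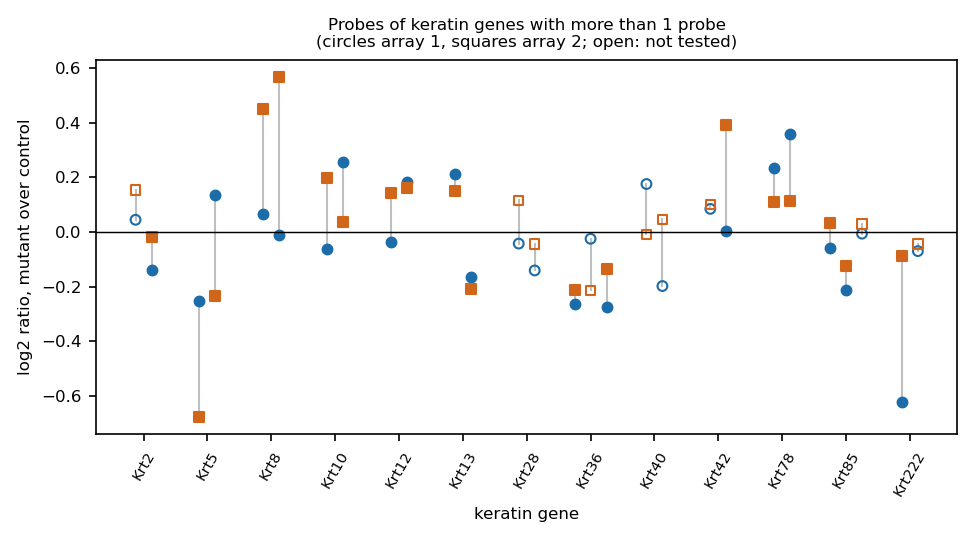
Log2 ratio of mutant over control for every probe of the 13 keratin genes with more than 1 probe, array 1 as circles and array 2 as squares joined by a line, with open symbols for probes too dim to test. The probes of Krt8, Krt36 and Krt78 lie together, those of Krt13 on opposite sides of 0, and those of Krt5 apart.

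Of 13 keratins with more than 1 probe, 8 had more than 1 that could be tested. In 1 of these 8, Krt13, the probes' means had opposite signs. The probes of Krt78 gave 0.17 and 0.24, those of Krt36 gave -0.24 and -0.20, and those of Krt12 gave 0.17 and 0.05. No probe of these 3 genes passed the test.

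Genes that attach or arrange keratin filaments lay mostly above 0. Of 15 scaffold and desmosome genes, 2 were higher and none lower in the mutant, 12 lay above 0 on both arrays, and the median was 0.22. Over all genes, 1.76% were called higher, 2.03% lower, and 30.5% lay above 0 on both arrays. This list and those below were chosen with earlier results of these data known. Evpl (envoplakin, a desmosomal linker) had 0.71 ± 0.16 (SD, n = 2, limma adjusted p = 0.0216), and Fam83h, which recruits a kinase to keratin filaments, had 0.71 ± 0.29 (SD, n = 2, limma adjusted p = 0.0262). Ppl (periplakin) had 0.40 and Pkp3 (plakophilin) had -0.37, and neither passed. Of 13 intermediate filament genes of other types, 2 were lower and none higher, with a median of -0.24. These were the neuronal filament genes Nefl, at -1.12 ± 0.01 (SD, n = 2, limma adjusted p = 0.00745), and Prph, at -0.78 ± 0.05 (SD, n = 2, limma adjusted p = 0.0156).

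Of 18 transcription factors known to act on keratin genes, 15 were tested, 3 were higher and none was lower, with a median of 0.34. Among all tested genes 1.76% were called higher and 2.03% lower, with a median of -0.02. The factors called were Grhl3 (0.82), which acts in barrier formation, Gata3 (1.00) and Foxa1 (0.79), the latter pair known from luminal urothelium. Trp63, the basal cell factor that acts on Krt5 and Krt14, had 0.45 ± 0.02 (SD, n = 2, limma adjusted p = 0.0562), opposite in sign to the means of those keratins. Other genes of basal urothelium were mixed. Of 10, Trp63 included, Cd44 was lower (-0.65 ± 0.14, SD, n = 2, limma adjusted p = 0.0243), none was higher, and the median was 0.19. Lamb3 (0.49), a chain of the laminin under basal cells, did not pass.

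Genes of epithelial identity had a larger median than the simple keratins. The counts below stand beside 1.76% of all genes called higher and 2.03% called lower. Of 11 tested, 4 were higher and none lower, with a median of 0.45, and Cdh1 (E-cadherin) had 0.80 ± 0.14 (SD, n = 2, limma adjusted p = 0.0156). Of 5 uroplakin genes, which encode the plaques of the urothelial surface, 2 were higher, and the median was 0.45. Upk1a had 0.97 ± 0.15 (SD, n = 2, limma adjusted p = 0.0116) where Krt20 of the same cells had -0.01. The difference between these lists and the keratins was not tested. In whole ureters, fewer cells of a type and less RNA per cell cannot be told apart.

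**Figure D4:**
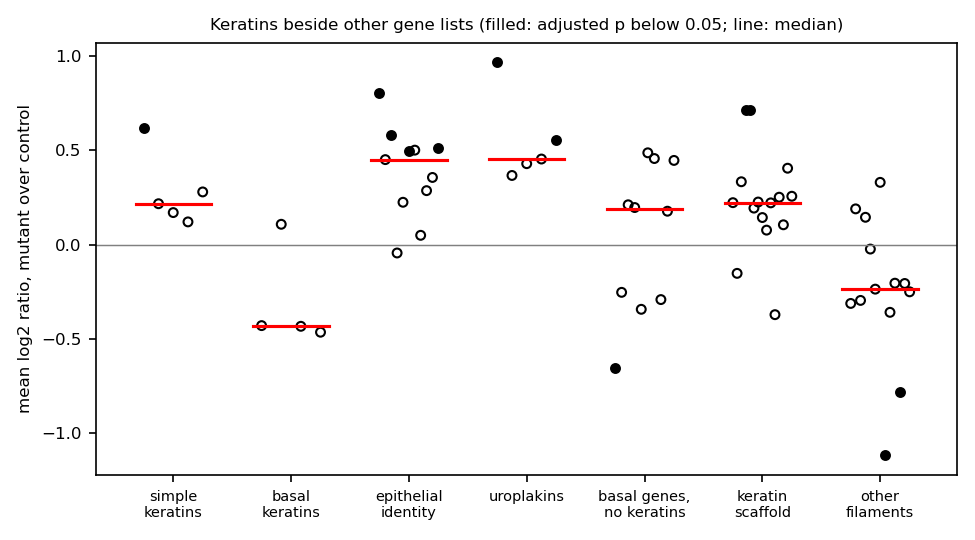
Mean log2 ratio of mutant over control for single genes of 7 lists, with filled points for an adjusted p below 0.05 and a red line at each list's median. The medians are -0.43 for basal keratins, 0.19 for basal genes that are not keratins, 0.22 for simple keratins and 0.45 for both epithelial identity genes and uroplakins, and single genes of these lists overlap: Cd44 (-0.65) lies below every basal keratin and Krt18 (0.61) above most epithelial identity genes.

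Some markers of other cell types that hold keratins, or that make up the rest of the culture, also differed between genotypes. These counts too stand beside 1.76% of all genes called higher and 2.03% called lower. Of 5 tested mesothelial genes, 2 were higher (Msln 1.08 and Upk3b 0.55, the latter also counted among the uroplakins), and 3 had opposite signs on the arrays. Gpm6a and Bnc1 were above background in no channel. The mean log2 level of that list was 10.72 (control) and 11.04 (mutant) on array 1 and 10.77 and 11.28 on array 2. Of 8 tested kidney tubule genes, 3 were higher, while 5 lay above 0 on both arrays and 3 below 0. Cdh16 had 3.43 on array 1 and 1.44 on array 2, while Slc12a1, Slc12a3 and Calb1 were above background in no channel. The list's mean level was 7.41 and 8.20 on array 1 and 7.36 and 7.69 on array 2. Of 6 tested cornified epidermis genes, only Sprr1a was called, as higher (0.54). Of the 6, 2 lay above 0 on both arrays, 2 below 0, and 2 had opposite signs. A further 5 genes of that list were above background in no channel. Of 10 mesenchyme and smooth muscle genes 1 was higher (Foxf1, 0.66) and 6 had opposite signs on the arrays, with a list median of 0.09. Adipocyte genes were lower in 6 of 6, with a median of -1.95 that was -1.15 on array 1 and -2.88 on array 2. Endothelial genes were lower in 4 of 6 (median -0.56) and macrophage genes in 2 of 6 (median -0.30). The part of these cells in the keratin values was not tested.

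**Figure D5:**
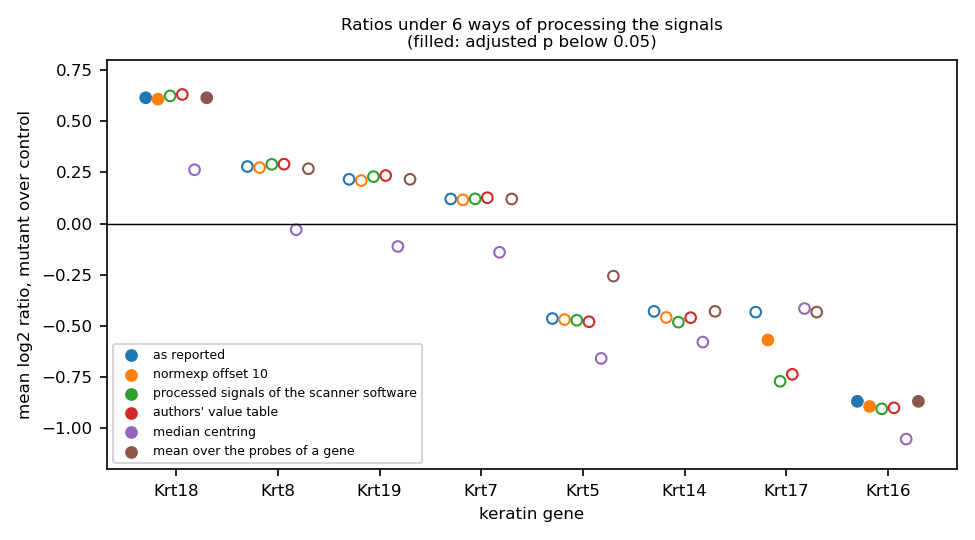
Mean log2 ratio of 8 keratins under 6 ways of processing the same arrays, with filled points where the adjusted p was below 0.05. Krt18 and Krt16 kept their direction in all 6 and were called in 3, although averaging probes could not change the ratio of these 1-probe genes. Under median centring, where the median of all genes was -0.14, Krt8, Krt19 and Krt7 had values below 0 and at or above that median.

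The called keratins kept their direction in all 9 alternatives with a test. Their direction could change only with offset 10, the scanner's processed signals, the authors' table and median centring. The other alternatives left the ratio of these 1-probe genes as it was. Krt18 ran from 0.26 to 0.63 and was called in 4 of them, and Krt16 ran from -1.05 to -0.87 and was called in 3. The settings differed widely in the share of all genes they called. With offset 10, 5.8% of genes were called, and of the keratins Krt18, Krt16 and Krt17. Among probes above background in all 4 channels 5.32% were called, and with a gene's probes averaged 4.37%, each time with Krt18 and Krt16. With no filter 2.38% were called and of the keratins Krt18. With the robust prior 5.92% were called and of the keratins Krt17. No keratin was called with the authors' table (0.77% of genes), the scanner's processed signals (0.0453%), separate channels (0.0136%) or median centring (0.0%), in limma fits that gave 8, 8, 2 and 8 keratins at an unadjusted p below 0.05. Krt5 was called in none of the 9, with log2 ratios between -0.66 and -0.26 and adjusted p-values between 0.0513 and 0.513. Krt14 was likewise called in none (log2 ratios from -0.58 to -0.43).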

How the data were processed

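Per the labels, 150 ng of total RNA per sample was labelled with Cy3 or Cy5, in opposite orientation on the 2 arrays. The deposited scanner files hold intensity values (mean and local background signal per spot) and log10 ratios of red over green, and the submitters' processing notes name Agilent Feature Extraction 10.7.3.1 as their source. In the authors' value table each probe has a score that is a signed fold change. Its log2 values correlated at r = 0.84 (array 1) and -0.85 (array 2) with Cy5 over Cy3, so it runs as mutant over control, and the sources used here do not give how spots were averaged or centred.

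In R 4.3.3 with limma 3.58.1, background was corrected by normexp (offset 50), which shrinks ratios of dim probes, and a loess fit per array normalised the ratios. Control spots had weight 0, and outlier spots (3.17% and 3.65% of gene spots, of the 252 keratin spots 6 and 10) were left out. The 4 spots of a probe were averaged, and a gene took its brightest tested probe, where a share above 0.5 of spots had to be well above background. Log2 signals per channel were made comparable between arrays by Aquantile. Ratios were tested against 0 by lmFit and eBayes (two-sided, Benjamini-Hochberg over 22070 genes, threshold 0.05), with 1 residual and 7.45 prior degrees of freedom. Precision is limited by having 2 arrays.

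Of 63 keratin probes, 56 were named alike through their RefSeq accession (GRCm38.p6, names only). The members and gene lists were chosen with earlier results of these data known. All keratins could be named: the simple, basal, superficial and mucosal ones and those called or above 0.5 (log2) on average in 1 direction with all signals, and of each other list the 4 with the smallest p. Some items that this rule names are not reported here. Alternatives covered background, signals, normalisation, filter, probe rule, variance model, separate channels and leaving out an array. Figures were drawn with matplotlib 3.10.9.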

Additional observations from a re-analysis of the deposited data

Results flagged for a closer look

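Of the 31 tested keratins, 10 had opposite signs on the arrays, where 33.5% of all genes did so. Among them were Krt15, Krt8, Krt7 and Krt20. Krt8 was level on array 1 (-0.0095), and its other tested probe was positive on both arrays (0.065 and 0.45). The arrays carry different sex labels, which sex-linked genes went against in both control samples. The log2 ratio on array 2 minus that on array 1 was -0.67 for Krt15, 0.58 for Krt8, 0.32 for Krt7 and 0.23 for Krt20. With 1 array each the differences were not tested, and array, dye orientation and sex label cannot be told apart.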

How the results depend on the processing

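Over all genes, 836 were called as reported, 1281 with offset 10, 10 with the scanner's processed signals, 170 with the authors' table, 0 with median centring by limma (5584 at an unadjusted p below 0.05), 1307 with an intensity trend and robust prior, and 3 with separate channels and no replicate block. Of the keratins, 0 were called with processed signals, the authors' table, median centring or separate channels by limma (8, 8, 8 and 2 at an unadjusted p below 0.05), 1 with no filter (Krt18) and 1 with the robust prior (Krt17). The unpaired fit ended the calls of Krt18 (limma adjusted p = 0.320) and Krt16 (0.322); each array pairs its own RNAs.

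Median centring gave medians of -0.056 (simple), -0.10 (superficial and mucosal), -0.11 (all keratins) and -0.14 (all genes), and put Krt7 (-0.14), Krt8 (-0.030), Krt19 (-0.11), Krt23 (-0.056) and Krt15 (-0.11) below 0. Relative to the median of all genes these were 0.0004, 0.11, 0.029, 0.085 and 0.030, so none of the 5 lay below it. Krt20, just below 0 as reported too, had -0.26 with median centring, which is -0.12 relative to that median. The superficial and mucosal median was -0.055 with no filter and -0.0039 with the mean over probes, which put Krt13 just below 0 (-0.0025). The median of all keratins was -0.090 with processed signals, -0.077 with the authors' table and -0.078 with the mean over probes, and ran from -0.090 to 0.0014 without each array in turn. Without the filter 5 of 13 keratins had probes of opposite sign. The cause of these shifts was not tested. Leaving out an array allows no test, since no residual degree of freedom is left. Dim keratins such as Krt4 are limited by signal over background.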
